A study of Danio rerio with 6 samples.

Results

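Forkhead (Fox) proteins are transcription factors that share a winged-helix DNA-binding domain and are sorted into subfamilies by letter. FoxA proteins open chromatin in endoderm and the ventral midline, FoxC and FoxF act in mesoderm and mesenchyme, FoxI and FoxJ1 drive ionocyte and motile cilium programmes, and FoxO proteins act under insulin and Akt signalling. In the embryo, most subfamilies mark a tissue, while FoxK and FoxO members are broadly expressed. The genes described here are the rows of the count table whose name, without a trailing copy number such as -2, is a Fox letter from A to Q followed by a digit, leaving out *foxd3*. This gave 65 of the 47445 rows and 53 distinct names, of which 10 have copy rows. The rule used names alone, although it was set with earlier results of these data known.

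Zebrafish embryos were sampled 1 day after fertilisation, with 3 libraries labelled rapgef1b knockdown and 3 labelled control, which the labels also call wild type. *rapgef1b* encodes an exchange factor for Rap GTPases, and the series title names 2 processes, the specification of neural crest and presomitic mesoderm patterning. The labels do not state the knockdown reagent, whether anything was injected into the controls, or how many embryos or pools stand behind a library, so p-values measure the spread between these libraries, which may be technical. Ribosomal RNA was depleted before sequencing. The RNA came from embryos, with the cell type given only as embryonic cell, so a smaller number of cells of a type and less RNA per cell cannot be told apart.

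Libraries labelled knockdown held 2118413 to 2232625 counts and control libraries 2042600 to 3809123. Levels are given as CPM, counts scaled to library size and composition. For the targeted gene *rapgef1b*, the libraries labelled knockdown had 131 ± 20.8 CPM and the controls 111 ± 1.49 CPM (SD, n = 3 each), so the label was not matched by a lower RNA level (log2 fold change 0.24, adjusted edgeR p-value 0.386). Its paralog *rapgef1a* had 34.8 ± 7.22 CPM in the libraries labelled knockdown and 39.9 ± 3.77 CPM in controls (SD, n = 3 each). Each direction given is therefore one of labels, libraries labelled knockdown over controls. Of 15607 tested rows, 669 were called at an adjusted p-value under 0.05 by edgeR's quasi-likelihood test, 314 higher (2.01%) and 355 lower (2.27%). With library size alone as the scale, 413 were higher and 284 lower.

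Forkhead rows together took a nearly constant part of each library, 0.174% to 0.177% of counts in the libraries labelled knockdown and 0.171% to 0.175% in controls. Individual members moved within that total. *foxq1a*, *foxh1* and *foxo3b* were higher in the libraries labelled knockdown, and *foxn4* was lower. Of the other tested rows, 1 more was called and is not described, and 34 were not called. *foxo3b* belongs to the stress and nutrient-responsive FoxO group, *foxh1* encodes the Smad partner of Nodal signalling, *foxn4* acts in retinal progenitors, spinal interneuron precursors and the atrioventricular canal, and *foxq1a* is one of a pair of FoxQ1 copies.

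Of the 65 rows, 39 passed the count filter and were tested. The 5 calls are 12.8% of them, where 4.29% of all tested rows were called. That share is a description only. Of the 5, 3 had all libraries of just 1 group above the filter level of 4.50 CPM, *foxh1* and *foxq1a* among them. The group in which they were high thus carried them through the filter or helped to, as 2 control libraries of *foxh1* also lay above that level. Among the 35 rows with all 6 libraries above that level, 2 were called, *foxn4* and *foxo3b*. With at least 10 counts required in every library, 5.71% of the forkhead rows tested were called, against 4.51% of all rows tested in that fit. With no filter other than leaving out rows without counts, the same 5 were called. They were 9.43% of the forkhead rows tested in that fit, against 3.25% of all 31075 rows tested. Over the 39 tested rows the median log2 fold change was -0.0034, with 19 estimates higher and 20 lower, and over all tested rows the median was 0.011. Groups did not overlap in 11 forkhead rows, 5 higher and 6 lower, or 28.2%, where the figure for all tested rows was 23.2%. As a group, forkhead rows were thus spread about the centre of the transcriptome. In labelled knockdown replicates 1, 2 and 3, 25.6%, 30.8% and 38.5% of the 39 rows lay above the control range, against 32.1%, 29.3% and 34.3% of all tested rows. Below it lay 28.2%, 38.5% and 35.9% of forkhead rows, against 31.9%, 29.3% and 34.2% of all tested rows.

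**Figure D1:**
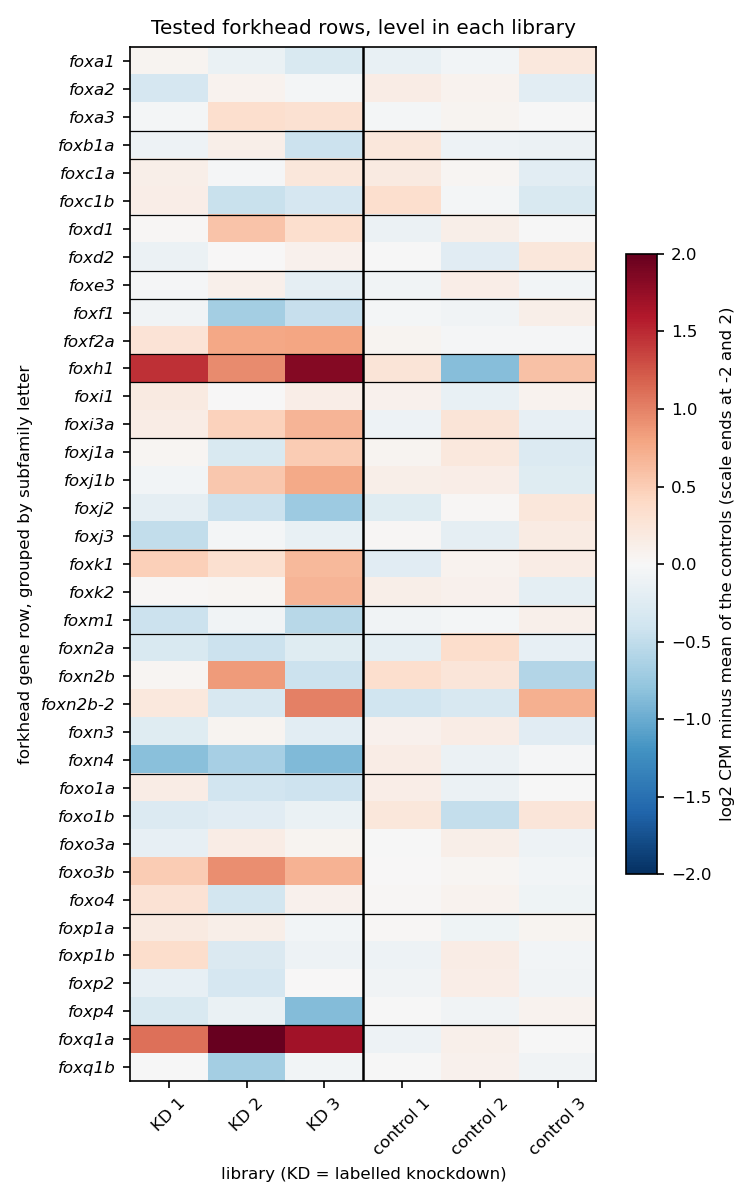
Heat map of log2 CPM minus the mean of the 3 controls for 37 tested forkhead rows (rows, grouped by subfamily letter) in 3 libraries labelled knockdown (KD, left) and 3 controls (right). *foxq1a*, *foxh1* and *foxo3b* are red and *foxn4* blue in all 3 libraries labelled knockdown, while *foxn2b* and *foxn2b-2* show opposite colours within single libraries; values past 2 take the end colour.

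The FoxQ subfamily held the largest estimate. *foxq1a* had 5.31, 11.98 and 8.40 CPM in libraries labelled knockdown 1, 2 and 3, against 1.89, 2.28 and 2.05 CPM in control replicates 1, 2 and 3. Every library labelled knockdown lay above every control, and the highest of them was replicate 2. These levels rest on 12, 26 and 18 counts in libraries labelled knockdown, against 7, 7 and 4 in controls. The log2 fold change was 2.02 (SE 0.42, 95% CI 1.14 to 2.91), with an adjusted edgeR p-value of 0.00899. Every control lay below the filter level of 4.50 CPM. *foxq1a* therefore passed the filter through the libraries labelled knockdown, and its call is a description only. In mouse, Foxq1 acts in hair shaft formation and in the mucous cells of the stomach. Without labelled knockdown replicate 2 the log2 fold change was 1.70 and the adjusted edgeR p-value 0.0543, and without control replicate 1 they were 1.94 and 0.0644. DESeq2 gave no adjusted p-value for this gene. The copy *foxq1b* had 4.101 ± 1.16 CPM in libraries labelled knockdown and 4.89 ± 0.31 CPM in controls (SD, n = 3 each), and was not called, at a log2 fold change of -0.26 (adjusted edgeR p-value 0.790). *foxq2* had no counts in any library.

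Both *foxq1* copies sit beside other forkhead genes. In RefSeq's GRCz12tu gene order, to which all 53 names matched, *foxq1a* is next to *foxf2a*, with *foxc1a* beyond 1 further gene, and *foxq1b*, *foxf2b* and *foxc1b* lie next to each other. Along the a-copy group the log2 fold changes were 2.02 for *foxq1a*, 0.67 for *foxf2a* and 0.093 for *foxc1a*. In the b-copy group they were -0.26 for *foxq1b* and -0.25 for *foxc1b*, and *foxf2b* was not tested. As *foxq1a* held the largest estimate of all tested forkhead rows, it was bound to be the highest of its group. *foxf2a* and *foxc1a* were not called (adjusted edgeR p-values 0.174 and 0.813), so no trend along the group is read from these values. Of the other genes within 5 places of *foxq1a*, none that was tested was called by edgeR, where 4.29% of all tested rows were. These neighbours were few, so the lack of calls says little. *mylk4a* was highest at 0.43 and *dusp22b* lowest at -0.35, named after their values were seen. The only other adjacent forkhead pair, *foxe3* and *foxd2*, had log2 fold changes of -0.037 and -0.0034.

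FoxF genes mark the mesenchyme of the gut and the face, and *foxf2a* also marks brain pericytes. *foxf2a* had 10.19, 14.7 and 14.9 CPM in libraries labelled knockdown 1, 2 and 3, against 8.62, 8.15 and 8.18 CPM in control replicates 1, 2 and 3. The groups did not overlap, and labelled knockdown replicate 1 lay closest to the controls. The log2 fold change of 0.67 (SE 0.27) missed the threshold, with an unadjusted p-value of 0.0212 (0.174 after edgeR's adjustment). *foxf1* had 10.9 ± 2.55 CPM in libraries labelled knockdown and 14.5 ± 1.17 CPM in controls (SD, n = 3 each; log2 fold change -0.39, adjusted edgeR p-value 0.432), and its groups overlapped. The row of *foxf2b* held 5 to 17 counts and was not tested. In the list of pharyngeal arch mesenchyme, 9 of 14 genes were tested, with 1 called higher and 1 lower, where 4.29% of all tested rows were called. Its median log2 fold change was -0.15 (-0.41 without labelled knockdown replicate 1, -0.038 without control replicate 2).

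FoxC genes act in paraxial mesoderm, the eye's surrounding mesenchyme and vessels. *foxc1a* had 54.5, 49.8 and 59.3 CPM in libraries labelled knockdown and 56.8, 51.5 and 43.5 CPM in controls. *foxc1b* had 29.2, 19.4 and 21 CPM in libraries labelled knockdown and 33.9, 26.1 and 21.5 CPM in controls. Both overlapped between groups, with log2 fold changes of 0.093 (95% CI -0.24 to 0.42) and -0.25 (95% CI -0.71 to 0.20). Of the sclerotome and paraxial mesoderm list, 13 of 18 genes were tested, and the median was 0.21. In it 3 were called higher, *msgn1*, *tbx6* and *tcf15*, and none lower, where 2.01% of all tested rows were called higher. Estimates were higher for 10 genes and lower for 3. The lower ones were *pax9* (-0.22), *pax1a* (-0.21) and *twist1a* (-0.16), named after their values were seen. In the same libraries *tbx6*, a regulator of presomitic mesoderm, was higher, at 94.4 ± 30.4 CPM against 36.7 ± 4.13 CPM in controls (SD, n = 3 each). The estimate was 1.36 (adjusted edgeR p-value 0.000686). The endothelium list had 1 of 13 tested genes called higher and none lower, where 2.01% of all tested rows were called higher. Its median was -0.16 (-0.33 without labelled knockdown replicate 1, -0.049 without replicate 2).

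FoxH has a single member, *foxh1*, which binds DNA together with receptor-activated Smad proteins in Nodal signalling and is best known from the blastula and gastrula. It had 12.8, 8.75 and 16.8 CPM in libraries labelled knockdown 1, 2 and 3, against 5.12, 1.96 and 6.65 CPM in control replicates 1, 2 and 3. The groups did not overlap, although labelled knockdown replicate 2 and control replicate 3 were close. Counts were 29, 19 and 36 in the libraries labelled knockdown and 19, 6 and 13 in controls. The log2 fold change was 1.53 (SE 0.37, 95% CI 0.76 to 2.31), with an adjusted edgeR p-value of 0.0227. DESeq2 also called it, at 0.0458. Control replicate 2 lay below the filter level of 4.50 CPM and all 3 libraries labelled knockdown above it. The libraries labelled knockdown thus helped to carry *foxh1* through the filter, and its call is a description only. With at least 10 counts required in every library it was not tested. The call was lost without labelled knockdown replicate 3 (log2 fold change 1.29, adjusted edgeR p-value 0.110), control replicate 1 (1.70 and 0.0696) or control replicate 2 (1.15 and 0.145). It was also lost when every library was thinned to the smallest total, at 0.0880.

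None of the tested genes around Foxh1 in the Nodal pathway was called, where 4.29% of all tested rows were. With so few genes, the lack of calls says little. Of 15 fixed in the list, 11 were tested, with no call in either direction by edgeR, 8 estimates higher and 3 lower, and a median log2 fold change of 0.15 (0.33 without labelled knockdown replicate 2). Unadjusted p-values under 0.05 were seen for 4 of these 11, where 18.1% of all tested rows had one. *lft1*, a feedback inhibitor of Nodal, had the highest estimate, 0.99 (adjusted edgeR p-value 0.181), and *tdgf1*, the co-receptor, had 0.80 (0.0903). The control mean of *lft1*, 4.48 CPM, lay below the filter level of 4.50 CPM. The libraries labelled knockdown thus helped to carry *lft1* through the filter, and its estimate and p-value are a description only. *smad3b* had the lowest, -0.57 (0.223), and *smad2* had 0.017 (0.965). These genes were named after their values were seen.

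In the telencephalon and diencephalon list, 12 of 14 genes were tested, and the median was -0.17. In it 1 was called lower and none higher, where 2.27% of all tested rows were called lower. The called gene was *eomesa*, a T-box gene of the pallium, at 14.7 ± 2.47 CPM in libraries labelled knockdown and 26.9 ± 4.67 CPM in controls (SD, n = 3 each; log2 fold change -0.84, adjusted edgeR p-value 0.0332). It lost that call with DESeq2, without labelled knockdown replicate 1 or 3 and without any 1 control, at adjusted p-values up to 0.133.

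**Figure D2:**
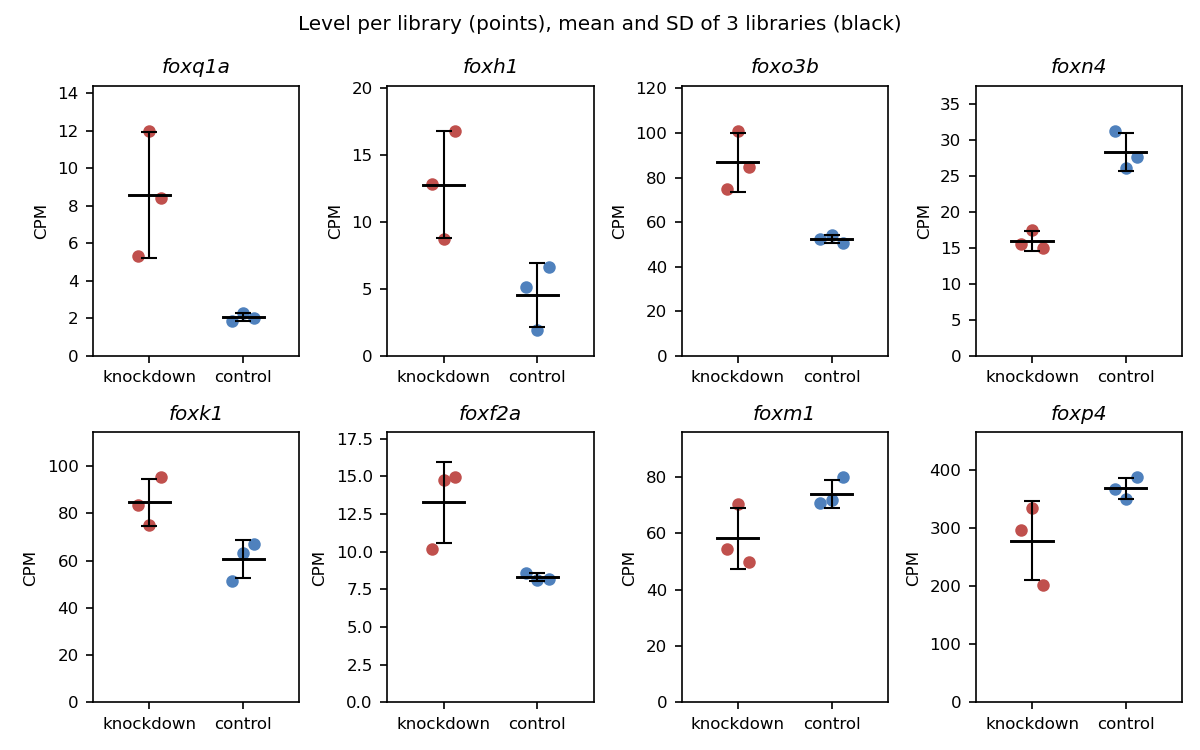
Level in CPM of 8 forkhead genes in each library (points), with the mean and SD of 3 libraries in black, libraries labelled knockdown on the left of each panel and controls on the right. The first 4 panels are called genes and the other 4 had an unadjusted p-value under 0.05 only; *foxq1a* lies between 5.31 and 11.98 CPM in the libraries labelled knockdown and between 1.89 and 2.28 CPM in controls.

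The FoxN subfamily held a gene that was lower. *foxn4* had 15.5, 17.5 and 14.9 CPM in libraries labelled knockdown 1, 2 and 3, against 31.3, 26.1 and 27.6 CPM in control replicates 1, 2 and 3. The gap between the groups was wider than the spread within either. Counts were 35, 38 and 32 in the libraries labelled knockdown and 116, 80 and 54 in controls. Its log2 fold change was -0.83 (SE 0.20, 95% CI -1.25 to -0.41), with an adjusted edgeR p-value of 0.0227. The size of the change was stable, from -0.91 without labelled knockdown replicate 2 to -0.75 without control replicate 1 among fits without 1 library. The call was lost in 5 of those 6 fits, all but the one without labelled knockdown replicate 2, at adjusted edgeR p-values from 0.0506 to 0.139, and with DESeq2, at 0.0698. After thinning, the values were -0.70 and 0.0871.

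*foxn3*, a repressor linked to cell cycle checkpoints, had 22.1, 27.6 and 22.9 CPM in libraries labelled knockdown and 28.0, 29.4 and 22.5 CPM in controls, with a log2 fold change of -0.15 and overlapping groups. *foxn2a* had 10.6, 9.68 and 11.2 CPM in libraries labelled knockdown, all below the controls at 11.6, 17.3 and 11.8 CPM. Its log2 fold change of -0.37 was not called (adjusted edgeR p-value 0.478). *foxn2b* was recorded in a pair of rows that varied in opposite ways between libraries. The first row had 14.6, 26.3 and 10.3 CPM in libraries labelled knockdown 1, 2 and 3 and 18.1, 17.0 and 9.21 CPM in control replicates 1, 2 and 3. The row *foxn2b-2* had 16.4, 11.1 and 28.9 CPM in the libraries labelled knockdown and 10.5, 11.1 and 23.5 CPM in controls. Libraries high in one row were low in the other, in both groups. Summed, they gave 35.7 ± 4.28 CPM in libraries labelled knockdown and 29.7 ± 2.60 CPM in controls (SD, n = 3 each), a difference of 0.28 (log2) that was not called (adjusted edgeR p-value 0.415). *foxn1*, the thymic epithelial regulator, had at most 4 counts in any library.

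FoxO proteins are held out of the nucleus when insulin or growth factor signalling activates Akt, and otherwise activate genes of quiescence, stress resistance and autophagy. *foxo3b* had 74.8, 100.9 and 84.9 CPM in libraries labelled knockdown 1, 2 and 3, against 52.5, 54.1 and 50.6 CPM in control replicates 1, 2 and 3. Controls lay within a few CPM of each other, and each library labelled knockdown lay well above them. With counts of 169, 219 and 182 for libraries labelled knockdown, against 195, 166 and 99 for controls, it rested on more reads than the other 4 called genes. The log2 fold change was 0.72 (SE 0.15, 95% CI 0.41 to 1.04), with an adjusted edgeR p-value of 0.00784. It kept its call with DESeq2, limma-voom, every scaling and filter tried, the replicate block and thinning, and lost it in 1 fit, the one without control replicate 1 (log2 fold change 0.72, adjusted edgeR p-value 0.0555).

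The other FoxO genes did not follow. *foxo3a* had 69.5, 87.1 and 80.7 CPM in libraries labelled knockdown and 77.3, 84.8 and 72.6 CPM in controls, with a log2 fold change of 0.011 (95% CI -0.29 to 0.31), whose sign changed with the scaling, filter or libraries used. *foxo4* had 67.9 ± 14.96 CPM in libraries labelled knockdown and 66.5 ± 3.66 CPM in controls (SD, n = 3 each). *foxo1a* had 31.1 ± 7.24 CPM in libraries labelled knockdown and 35.8 ± 3.09 CPM in controls, and *foxo1b* had 8.38 ± 0.45 CPM in libraries labelled knockdown and 10.1 ± 2.79 CPM in controls (SD, n = 3 each). Estimates were 0.026, -0.20 and -0.25 for *foxo4*, *foxo1a* and *foxo1b*, and none was called by edgeR.

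Genes upstream of FoxO, from insulin receptors to Akt, showed 1 call in 16 tested of 18, where 4.29% of all tested rows were called. Estimates were higher for 8 and lower for 8. The median was 0.042 (-0.011 with at least 10 counts in every library, 0.12 without labelled knockdown replicate 3). The call was *insrb*, an insulin receptor gene, at 153 ± 43.3 CPM in libraries labelled knockdown and 100 ± 8.43 CPM in controls (SD, n = 3 each; log2 fold change 0.61, adjusted edgeR p-value 0.0460). It was lost in 10 of the 17 alternatives, DESeq2 and limma-voom among them. In fits without 1 library it was lost in all but the one without labelled knockdown replicate 2, at up to 0.232, and the estimate was 0.37 without labelled knockdown replicate 1. Known FoxO targets also had 1 call, in 13 tested of 18, beside the same 4.29% of all tested rows, with a median of 0.16 (0.027 without control replicate 1). Of these 13, 8 had higher estimates and 5 lower. *sesn3*, a sestrin gene that FoxO proteins activate in mammalian cells, had 297 ± 116 CPM in libraries labelled knockdown and 136 ± 4.26 CPM in controls (SD, n = 3 each). The estimate was 1.13 (SE 0.21; adjusted edgeR p-value 0.0100), and it kept its call in each of the 17 alternatives, with adjusted p-values of at most 0.0477. The estimate was 0.76 without labelled knockdown replicate 3.

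**Figure D3:**
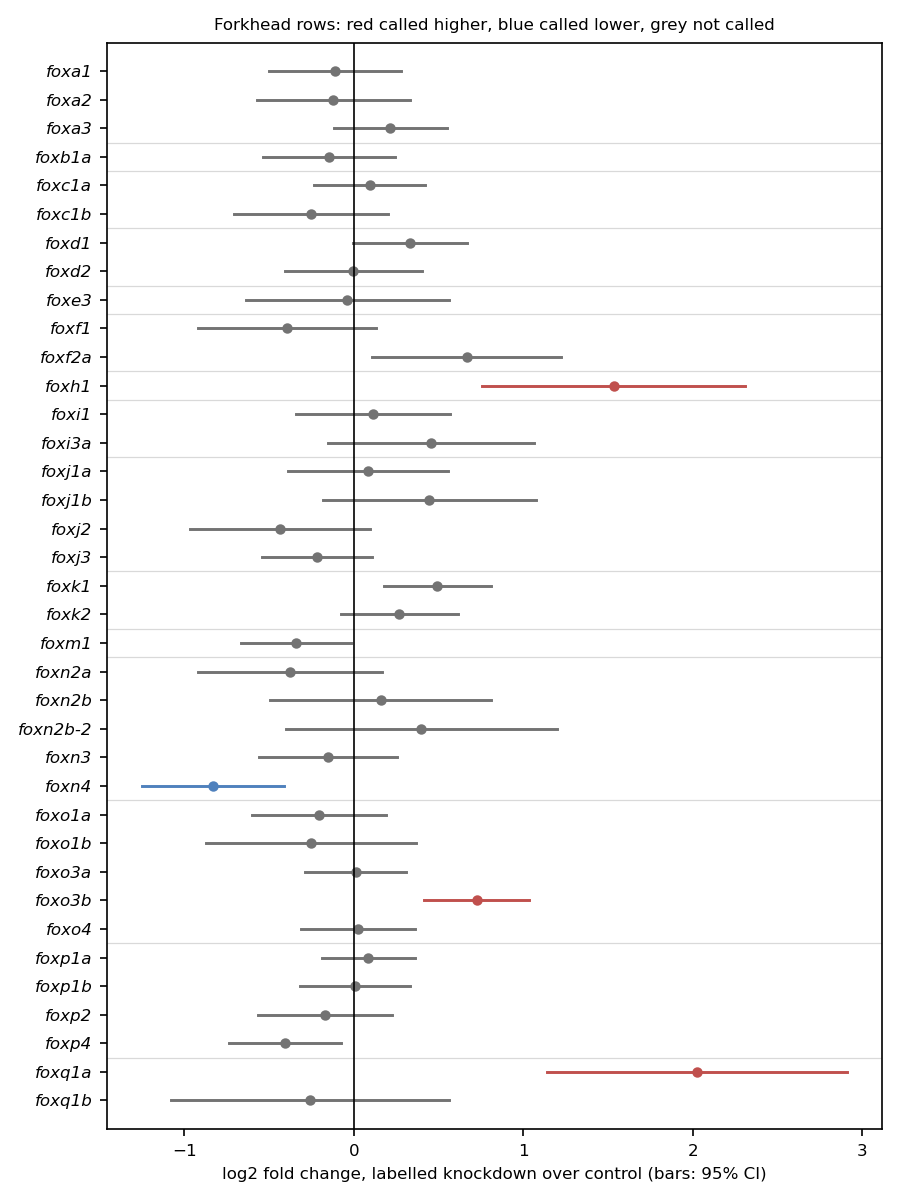
Log2 fold change of 37 tested forkhead rows, libraries labelled knockdown over controls, with 95% confidence intervals from the edgeR fit (3 libraries per group). Intervals of *foxq1a*, *foxh1* and *foxo3b* lie to the right of 0 and that of *foxn4* to the left; *foxk1*, *foxf2a*, *foxm1* and *foxp4* also exclude 0 but were not called after adjustment over 15607 rows.

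Within 2 pairs of gene copies, the copies were set against each other in each library, as a log2 ratio of CPM with a prior count of 2. *foxo3b* over *foxo3a* was 0.11, 0.21 and 0.072 in libraries labelled knockdown 1, 2 and 3, against -0.55, -0.64 and -0.51 in control replicates 1, 2 and 3. The difference of 0.70 was far larger than the SDs of 0.072 and 0.065. *foxq1a* over *foxq1b* averaged 0.90 ± 0.88 in libraries labelled knockdown and -0.99 ± 0.077 in controls (SD, n = 3 each), a difference of 1.89. Groups did not overlap in either pair. The pairs were chosen because 1 copy had been called, so the ratios restate those calls and are given as a description only. An exact permutation test over the 6 libraries gave a p-value of 0.1 for either pair. That is the smallest value it can give, and no conclusion is drawn from it.

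**Figure D4:**
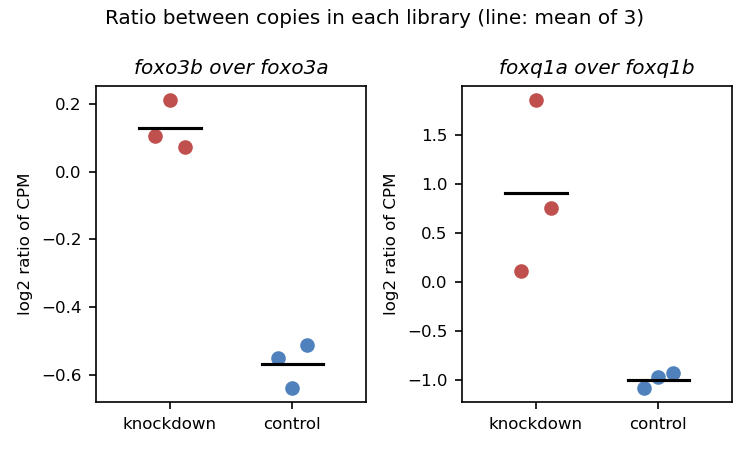
Log2 ratio of CPM between the copies of 2 forkhead genes in each library (points; line, mean of 3), libraries labelled knockdown left and controls right in each panel. The groups do not overlap in either panel, and *foxo3b* over *foxo3a* is above 0 in all 3 libraries labelled knockdown and below 0 in all 3 controls.

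FoxK proteins are broadly expressed repressors known in mammalian cells for holding back autophagy genes. *foxk1* had 83.7, 75.1 and 95.2 CPM in libraries labelled knockdown 1, 2 and 3, against 51.5, 63.3 and 67.0 CPM in control replicates 1, 2 and 3. The groups did not overlap. Its log2 fold change was 0.49 (SE 0.15, 95% CI 0.18 to 0.81), with an unadjusted p-value of 0.00407 (adjusted edgeR p-value 0.0738), and was not called. Over the alternatives the adjusted p-value ran from 0.0427 with library size alone to 0.354 without control replicate 1 (log2 fold change 0.38). It was under the threshold in 2 of them, the other being the fit without labelled knockdown replicate 2, at 0.0499, and was 0.156 with DESeq2 and 0.234 without labelled knockdown replicate 3. *foxk2* had 105, 106 and 165 CPM in libraries labelled knockdown and 112, 110 and 89.5 CPM in controls. Only labelled knockdown replicate 3 stood above the controls, and the log2 fold change of 0.27 was 0.014 without that library.

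FoxP proteins act in brain, heart and lung development in vertebrates, and *foxp4* had the most reads of any forkhead row. *foxp4* had 297, 334 and 203 CPM in libraries labelled knockdown 1, 2 and 3, against 368, 351 and 387 CPM in control replicates 1, 2 and 3. All 3 were below all controls, replicate 3 by the widest margin. The log2 fold change was -0.41 (SE 0.16, 95% CI -0.74 to -0.076), with an unadjusted p-value of 0.0183 (adjusted edgeR p-value 0.162), so it was not called, and the estimate was -0.23 without labelled knockdown replicate 3. *foxp1a*, *foxp1b* and *foxp2* had log2 fold changes of 0.086, 0.0070 and -0.17 and overlapping groups. Their confidence intervals ran from -0.19 to 0.36, from -0.32 to 0.33 and from -0.57 to 0.23. *foxp3a* and *foxp3b*, copies of the regulatory T cell gene, had at most 3 counts in any library.

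*foxm1* encodes the factor that drives G2 and mitosis genes in dividing cells. It had 54.5, 70.5 and 49.9 CPM in libraries labelled knockdown 1, 2 and 3, against 70.6, 71.8 and 79.8 CPM in control replicates 1, 2 and 3. The groups were separated by the narrow gap between labelled knockdown replicate 2 and control replicate 1. The estimate of -0.34 (SE 0.16) had an unadjusted p-value of 0.0413 (adjusted edgeR p-value 0.250), and was not called. Among its cell cycle targets, 14 of 16 were tested and none was called by edgeR in either direction, where 4.29% of all tested rows were. With so few genes, the lack of calls says little. Estimates were lower for 10 and higher for 4, and the median was -0.17 (-0.094 without control replicate 1). Unadjusted edgeR p-values under 0.05 were seen for 2 of these 14, where 18.1% of all tested rows had one. They were *cenpf* and *top2a*, at log2 fold changes of -0.46 and -0.34, and both were named after their values were seen.

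FoxA genes mark the floor plate, notochord, hatching gland and endoderm. *foxa1* had 28.8 ± 3.80 CPM in libraries labelled knockdown and 31.5 ± 4.23 CPM in controls, *foxa2* had 18.0 ± 2.67 CPM in libraries labelled knockdown and 19.3 ± 2.59 CPM in controls, and *foxa3* had 52.2 ± 7.25 CPM in libraries labelled knockdown and 44.9 ± 1.55 CPM in controls (SD, n = 3 each). None was called by edgeR, and the groups overlapped for all 3. *foxa3* was higher in labelled knockdown replicates 2 and 3, at 57.1 and 55.5 CPM, than in replicate 1, at 43.8 CPM. The intervals of their log2 fold changes lay between -0.57 and 0.55. In the floor plate and notochord list 11 of 14 genes were tested, none was called, and the median was -0.052 (0.0048 with library size alone, -0.21 without labelled knockdown replicate 1, 0.051 without replicate 3). For endoderm and its organs, 7 of 14 were tested, none was called, and the median was 0.22 (0.012 without labelled knockdown replicate 1, 0.44 without replicate 2). Of all tested rows 4.29% were called, so with so few genes in either list the lack of calls says little.

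FoxI1 acts in the otic placode and pharynx and Foxi3 in epidermal ionocytes, the ion-transporting cells of the skin. *foxi1* had 18.2, 16.1 and 17.7 CPM in libraries labelled knockdown and 17.0, 14.4 and 16.9 CPM in controls, with a log2 fold change of 0.11 (adjusted edgeR p-value 0.839). *foxi3a* had 8.41, 10.6 and 12.6 CPM in libraries labelled knockdown and 7.004, 9.13 and 6.65 CPM in controls, with a log2 fold change of 0.46 (adjusted edgeR p-value 0.431) and overlapping groups. In the ionocyte list 6 of 12 genes were tested, and the median was -0.57 (-0.36 without labelled knockdown replicate 3). In it 2 were called lower and none higher, where 2.27% of all tested rows were called lower. *ca15a*, a carbonic anhydrase gene, had 4.08 ± 2.34 CPM in libraries labelled knockdown and 15.4 ± 1.91 CPM in controls, and *atp1b1b*, a sodium pump subunit, had 49.8 ± 11.5 CPM in libraries labelled knockdown and 112 ± 17.9 CPM in controls (SD, n = 3 each). By edgeR they were lower by log2 fold changes of -1.89 (adjusted p-value 0.00297) and -1.16 (0.000414). *atp1b1b* kept its call in all 17 alternatives and *ca15a* in the 16 that gave a value. The mean of *ca15a* in libraries labelled knockdown lay below the filter level of 4.50 CPM. It therefore passed the filter through the controls, and its call is a description only. In the otic and placode list 1 of 12 tested genes was called, higher, where 2.01% of all tested rows were called higher. Its median was 0.068 (-0.0077 without control replicate 3).

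*foxj1a* and *foxj1b* are master regulators of motile cilia. *foxj1a* had 23.0 ± 6.74 CPM in libraries labelled knockdown and 21.4 ± 3.74 CPM in controls, and *foxj1b* had 10.4 ± 3.04 CPM in libraries labelled knockdown and 7.46 ± 1.14 CPM in controls (SD, n = 3 each). Labelled knockdown replicate 3 was the highest of all libraries for both, at 30.3 and 13.1 CPM. Neither was called by edgeR, with log2 fold changes of 0.082 and 0.45. In the motile cilia list 9 of 20 genes were tested and 1 was called, where 4.29% of all tested rows were called. Estimates were higher for 4 and lower for 5. The call was the ciliary transcription factor *rfx2*, which was higher, at 98.3 ± 19.8 CPM against 61.3 ± 7.98 CPM in controls (SD, n = 3 each; log2 fold change 0.67, adjusted edgeR p-value 0.0204). It lost the call after thinning, without labelled knockdown replicate 1 and without any 1 control, at adjusted p-values up to 0.112. *rfx4*, of the same list, had an estimate of -0.46 and was not called (adjusted edgeR p-value 0.142). It was named after its value was seen. The list's median was -0.024, and its sign changed in 7 settings, to as much as 0.30 without control replicate 1 and 0.20 with at least 10 counts in every library. *foxj2* and *foxj3* had log2 fold changes of -0.44 and -0.22 and were not called; *foxj3* had 54.5, 75.1 and 69.5 CPM in libraries labelled knockdown and 78.4, 67.8 and 86.4 CPM in controls.

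Foxe3 is required in the lens epithelium. *foxe3* had 8.41, 9.21 and 7.47 CPM in libraries labelled knockdown and 8.08, 9.46 and 8.18 CPM in controls, nearly the same range. The fitted difference was -0.037 (SE 0.29, 95% CI -0.63 to 0.56), on 16 to 30 counts per library, and 0.017 with library size alone. In the lens list 6 of 8 tested genes were called lower, none higher, where 2.27% of all tested rows were called lower, and the list median was -1.77. Only 1 of the 8, *pitx3*, had at least 10 counts in every library, and the list median with that requirement was its own value of -0.24, which was not called. The other 7 passed the filter with low counts in some libraries, so the count of calls is a description only. *foxe1*, of the thyroid primordium, had at most 6 counts.

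FoxB1 marks the neural tube. *foxb1a* had 34.1, 40.1 and 27.1 CPM in libraries labelled knockdown and 43.1, 34.3 and 33.8 CPM in controls, with a log2 fold change of -0.15 (adjusted edgeR p-value 0.742). The 3 rows of *foxb1b* were each below the filter, and their sum gave 6.19 ± 2.37 CPM in libraries labelled knockdown and 6.76 ± 2.55 CPM in controls (SD, n = 3 each). In the midbrain and hindbrain list 1 of 10 tested genes was called higher, none lower, where 2.01% of all tested rows were called higher. Its median was 0.040 (-0.026 without control replicate 1).

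Of the FoxD genes, *foxd1* is expressed in forebrain and retina. *foxd1* had 53.6, 77.9 and 66.7 CPM in libraries labelled knockdown and 48.5, 57.1 and 52.2 CPM in controls. Labelled knockdown replicates 2 and 3 exceeded all controls and replicate 1 did not, and the log2 fold change was 0.33 (95% CI -0.0072 to 0.67; adjusted edgeR p-value 0.289). *foxd2* had 26.4 ± 1.85 CPM in libraries labelled knockdown and 26.7 ± 4.36 CPM in controls (SD, n = 3 each).

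The 26 rows that were not tested include 12 with no count in any library. Every row of *foxb2*, *foxd5*, *foxi3b*, *foxl1* and *foxq2* was at 0, which allows up to 3 counts, or 0.808 to 1.53 CPM depending on the library, for counting error only. *foxi3b* has 3 rows. Of the 10 forkhead names with copy rows, 4 were at 0 in every row, against 2 of the 43 names with 1 row. Among all names in the data, 24.7% of names with several rows had no count in any of them, against 9.59% of those with 1 row. How reads that match several rows were counted is not given in the sources used here, so a level of 0 for these names is uncertain. The other 14 untested rows held at most 26 counts in any library. Among them the ovarian gene *foxl2* had at most 10 counts, and the pair of *foxi2* rows, when summed, had 4.57 ± 0.90 CPM in libraries labelled knockdown and 4.61 ± 0.59 CPM in controls (SD, n = 3 each).

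Broader tissue lists gave the setting in which these genes were measured. Of all tested rows, 2.01% were called higher and 2.27% lower, and no list was tested as a set. Skeletal muscle had 5 of 13 tested genes called lower and a median log2 fold change of -0.98, erythroid cells 3 of 9 lower and -0.69, the yolk syncytial layer 3 of 12 lower and -0.41, and neurons 1 of 10 lower and -0.32 (-0.54 without labelled knockdown replicate 2), with none called higher in these 4. Epidermis had 3 of 14 called higher, 2 lower and a median of 0.073 (0.010 without control replicate 1). Only 2 of the 7 Groucho co-repressor genes in the list, partners of several Fox repressors, were tested, and neither was called (median 0.22). Whether a different mix of tissues contributed to the forkhead changes was not tested.

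**Figure D5:**
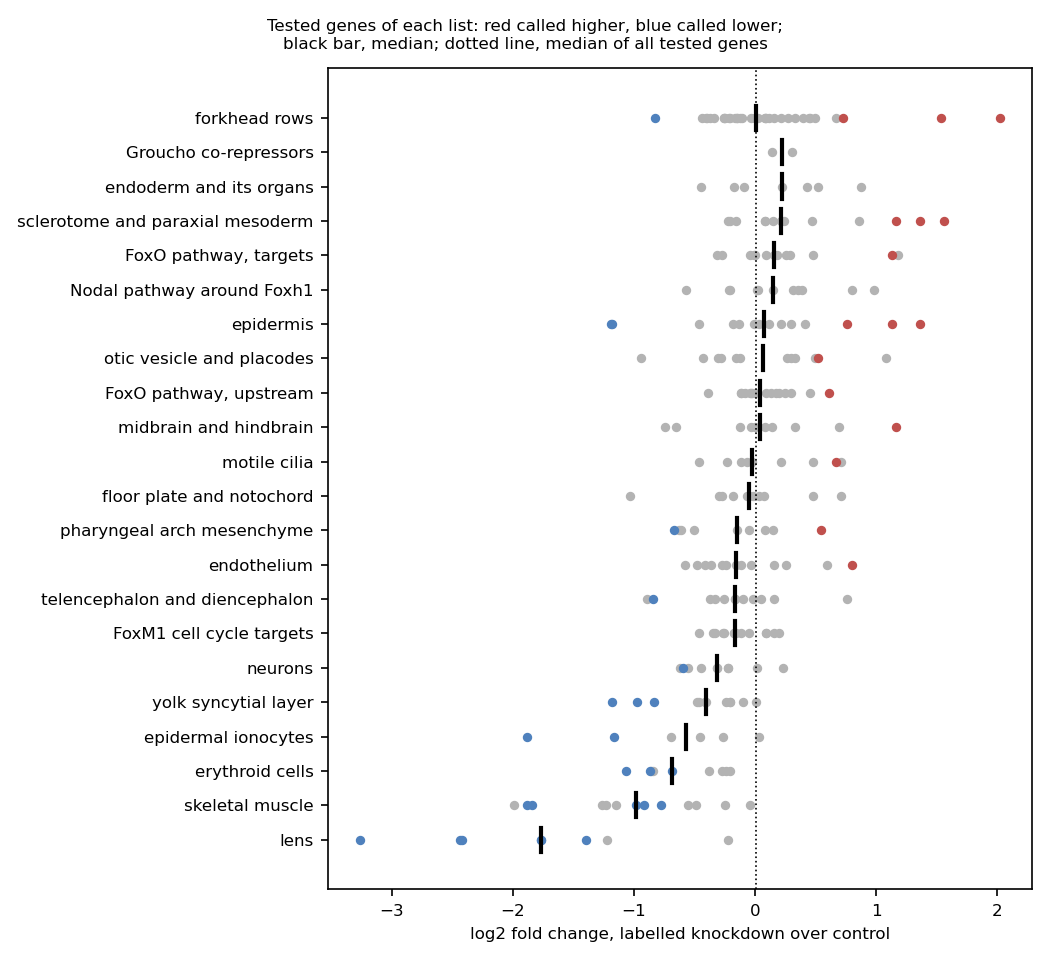
Log2 fold changes, libraries labelled knockdown over controls, of the tested genes of each gene list and of 37 forkhead rows (top line); red points were called higher, blue points lower, the black bar is the median and the dotted line the median of all tested rows, 0.011. Forkhead rows centre near that line with 4 called genes at the flanks, whereas the skeletal muscle list lies to its left with a median of -0.98; the lens list, with a median of -1.77, rests on genes of low counts.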

How the data were processed

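The authors deposited raw counts as 1 table of gene names against the 6 libraries (3 labelled knockdown, 3 control). The submitters' processing notes name FastQC, cutadapt, STAR, DESeq2 and the build GRCz11; the counting tool, annotation and use of strand are not given in the sources used here, so reads of overlapping or antisense genes may be mixed. Library names in the descriptions tied columns to samples. The description of control replicate 3 repeats the number 2, and its title was followed.

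Counts were filtered with filterByExpr by group (minimum count 10, minimum total 15), scaled with TMM and tested with edgeR 4.0.16 in R 4.3.3 (estimateDisp, glmQLFit with robust=TRUE, glmQLFTest) over 15607 rows with group as the only term, with Benjamini-Hochberg adjustment over all of them. The SE is the log2 fold change divided by the square root of F. Log2 CPM used a prior count of 2. Depth of 2042600 to 3809123 counts limits the precision of low genes. The biological coefficient of variation was 13.5%. No per-library column was left unused. The test was checked on simulated counts. Differences between libraries of a group exceeded sampling noise (chi-square over its degrees of freedom, 2.82 to 6.41).

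Named in full are called members, members with an unadjusted p-value under 0.05, the member with the most reads in each subfamily, and copies of called members; from the 21 gene lists, up to 2 called genes were eligible. The members and lists were chosen with earlier results of these data known. Alternatives were DESeq2 1.42.0, limma-voom (limma 3.58.1), other scalings and filters, robust=FALSE, summed copy rows, a replicate block and the removal of each library in turn; thinning was added after seeing the data. Figures used matplotlib 3.10.9. Sequences were not used here. The rows of 1 subfamily count in the totals but are not reported here.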

Additional observations from a re-analysis of the deposited data

How the results depend on the processing

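The 5 forkhead calls were the same 5 genes with DESeq2 size factors, upper quartile factors, no filter, robust=FALSE and summed copy rows. Library size alone gave 6, adding *foxk1*, and limma-voom 4. In these fits 9.43% to 15.4% of the forkhead rows tested were called, against 3.25% to 5.23% of all rows tested. The count was 2 with DESeq2 (*foxh1* and *foxo3b*, with no adjusted p-value for *foxq1a*), or 5.56%, against 3.54% of all rows tested. It was 2 with at least 10 counts in every library (*foxn4* and *foxo3b*, the other 3 not being tested there), or 5.71% against 4.51%. After thinning it was 2 (*foxo3b* and *foxq1a*), or 5.26% against 3.58%. In these 3 fits the forkhead share lay nearer that of all rows than in the main fit, at 12.8% against 4.29%. Leaving out 1 library gave 0 to 5 forkhead calls (0% to 12.8%) and 219 to 914 calls over all rows tested (1.35% to 5.63%). The count of forkhead calls was 0 without control replicate 1, where 1.52% of all rows tested were called. Without a filter, 1010 of the 31075 rows with counts were called. The replicate number as a block gave the same 5 forkhead calls (12.8%) and 773 over all rows tested (4.95%). Deviations from the group means had correlations of -0.014, 0.066 and 0.069 between same-numbered libraries. Between differently numbered libraries they ran from -0.098 to 0.052. Whether the replicate numbers pair the libraries was not tested. The direction of each called member was the same in every alternative that gave a value. *foxo3a* changed sign to -0.0065 (upper quartile), -0.0078 (no filter), -0.0021 (thinned), and, in a leave-one-out range of -0.072 to 0.097, to -0.072, -0.0095, -0.0017 and -0.038 without labelled knockdown replicates 2 and 3 and control replicates 1 and 3. *foxe3* changed sign to 0.017 with library size alone, and, in a leave-one-out range of -0.12 to 0.040, to 0.031 and 0.040 without labelled knockdown replicate 3 and control replicate 2. None of these was called, and the cause was not tested. The copy ratios ran without 1 library from 0.66 to 0.73 for *foxo3b* over *foxo3a* and from 1.43 to 2.299 for *foxq1a* over *foxq1b*. The calls on *foxq1a* and *foxh1* rest on few reads, 4 to 36 counts per library.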

Other observations

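Spread within groups was examined over the 39 tested forkhead rows. The SD of CPM was larger among the libraries labelled knockdown than among controls in 27 of them, or 69.2%, and in 63.3% of all tested rows. Named after their values were seen, *foxk2* and *foxp4* had SDs of 34.3 and 68.0 CPM in libraries labelled knockdown and 12.3 and 18.3 CPM in controls, and in both the library apart from the others was labelled knockdown replicate 3.

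For the names recorded in several rows, summing changed how variable a gene appeared. The SD of *foxn2b* in libraries labelled knockdown was 8.27 CPM for its first row and 9.18 CPM for *foxn2b-2*, on means of 17.1 and 18.8 CPM, and 4.28 CPM for their sum on a mean of 35.7 CPM. In controls the SDs were 4.82 and 7.36 CPM for the rows, on means of 14.7 and 15.04 CPM, and 2.60 CPM for the sum on a mean of 29.7 CPM. The split between the rows differed between libraries of the same group, and its origin was not tested.

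Genes lying beside the called members in RefSeq's GRCz12tu order were not called. Within 5 places on either side of *foxo3b*, *foxh1* and *foxn4*, no tested neighbour was called by edgeR, where 4.29% of all tested rows were. With so few neighbours, the lack of calls says little. The highest and lowest estimates among the neighbours of *foxo3b* were 0.88 for *armc2* and -0.41 for *nr2e1*, and the sestrin gene *sesn1*, also within 5 places, had 0.16. These neighbours were named after their values were seen.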
